A study of Mus musculus with 5 samples.

Results

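The 10 genes described here were listed as markers or products of resident and repair macrophages: Lyz2, Mpeg1, Csf1r, Adgre1, Cd68, Mrc1, Cd163, Msr1, Arg1 and Retnla. They were taken as a list of symbols, and all 10 were found among the 36716 genes of the count table. Across mice, with group means taken off, Msr1 had its highest Spearman's rho with inflammatory macrophage genes (0.77). Arg1 had it with neutrophil markers (0.49), Retnla with adipocyte markers (0.46) and Lyz2 with lysosome and phagosome genes (0.73). For Mpeg1, Adgre1 and Cd68 it was with other monocyte and macrophage genes (0.78, 0.71 and 0.78). Only Csf1r had it with the repair macrophage list (0.61), and only Mrc1 and Cd163 with the resident list (0.76 and 0.28). Expression was measured by 3′ RNA sequencing with molecular barcodes in upper back skin of 153 female SKH-1 mice, a hairless strain, aged 7 to 8 weeks. Levels are given as CPM, a gene's counts scaled to a library of 1000000 counts, and each library is 1 mouse.

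The mice formed 19 groups, with 9 untreated mice in the naive group and 8 mice in each of the other 18. At each timepoint, 24 h and 7 d, the control group received PBS on intact skin and the scratched group received PBS after superficial scratching with a metal brush. A further 3 groups received nanosized titanium dioxide (nTiO2), zinc oxide (nZnO) or silver (nAg) dispersed in PBS on intact skin, and 3 received the same material on scratched skin. The last group at each timepoint was scratched and given no PBS. All mice were of 1 strain and sex, a whole skin biopsy holds epidermis, dermis and whatever blood cells are in it, and no cell type was sorted. The fat gene Adipoq and the skeletal muscle gene Mylpf also had counts in every mouse, with means of 350 and 940 CPM. In such bulk samples, fewer cells of a type and less RNA per cell cannot be told apart.

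Macrophages are phagocytes that live in the dermis of healthy skin, where CSF1 acting through the receptor encoded by Csf1r keeps them alive. After injury, monocytes enter from the blood and become macrophages, which first take up debris and bacteria and later take part in repair. The cytokines IL-4 and IL-13 induce a set of genes in mouse macrophages that is often called alternative activation, with Arg1, Mrc1 and Retnla as its usual markers.

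Promoter sequence was examined because some of these genes varied together between mice, as described further on. RefSeq promoters, from 250 bases before to 50 bases after a gene's start on the GRCm38.p6 build, were matched for 6 of the 10 genes (Lyz2, Mpeg1, Cd68, Mrc1, Cd163 and Retnla). The motif GAGGAA, the purine-rich core of sites for PU.1 and related ETS factors of myeloid cells, was searched on both strands, where the other strand reads TTCCTC. It was present in 3 of the 6 promoters, those of Cd68, Mrc1 and Retnla, and in 28.3% of all 32851 promoters of that length. One window of 30 bases is shown for each of the 3 genes so that a match can be seen in its surroundings. It is given in the direction of the gene's own strand, with the motif in capitals. Further matches in Cd68 and Mrc1 are not shown. The Cd68 window lies at chr11:69666378-69666407 on the minus strand, the Mrc1 window at chr2:14229367-14229396 on the plus strand and the Retnla window at chr16:48842401-48842430 on the plus strand.
Cd68: tttcttaccaatGAGGAAagggcttcccat
Mrc1: aaaagggacagcTTCCTCtgtcctcctttt
Retnla: aagtgggtttacTTCCTCaagtctcttgaa
These matches are a description of the letters only. Mpeg1, which varied most closely with Cd68, had no match in its window. Csf1r and Adgre1, which also varied with Cd68, had no promoter to search.

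Library totals ranged from 201053 to 4028559 counts with a median of 1226021, and RNA integrity numbers (RIN) from 7.7 to 9.9. The smallest library, replicate 3 of the 7 d control group, stood apart from the next at 613961 counts, and results that use it were also computed without it. Replicate 7 of the 7 d nZnO group has conflicting treatment entries in the sample information, and its comparisons were likewise repeated without it. The tissue label held: the epidermal keratins Krt5, Krt14, Krt1 and Krt10 and the dermal collagens Col1a1 and Col3a1 had counts in every mouse. All 10 macrophage genes passed the filter on low counts in all 31 comparisons. Mouse libraries were sequenced in 5 pools, and most groups shared a pool with only some of the groups they were compared with.

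Lyz2, which encodes the bacteria-digesting enzyme lysozyme of myeloid cells and lies at chr10:117111557-117118346, had group means from 2631 ± 557 CPM (SD, n = 8) in the 7 d nAg group to 3668 ± 423 CPM in the 24 h nAg group. Mpeg1 (chr19:12438114-12442649) encodes a pore-forming protein of macrophages and had its lowest mean in the 24 h control group, 117 ± 43.0 CPM, and its highest in the 7 d group scratched without PBS, 189 ± 44.2 CPM. For Cd68 (chr11:69555037-69557067), a glycoprotein of the lysosome membrane, the lowest mean was also that of the 24 h control group, 112 ± 37.4 CPM, and the highest was 185 ± 39.3 CPM in the 24 h group scratched without PBS. These 3 genes had counts in every mouse.

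Csf1r, the growth factor receptor, lies on chromosome 18 and varied least between groups, from 113 ± 33.0 CPM in the 7 d nAg group to 153 ± 30.8 CPM in the 7 d scratched nZnO group, a ratio of 1.35. Adgre1 (chr17:57665573-57790527), which encodes the adhesion receptor recognised by the classic mouse macrophage antibody, ranged from 43.8 ± 10.2 CPM in the 7 d nAg group to 80.1 ± 33.1 CPM in the 7 d group scratched without PBS. The gene positions given with the levels are those of the GRCm39 build, which the counts also use.

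Mrc1 (chr2:14234151-14336926) encodes a mannose receptor that takes up glycoproteins, and its group means ran from 268 ± 29.8 to 375 ± 56.0 CPM. Cd163 (chr6:124281606-124307560), the receptor for haemoglobin bound to haptoglobin, was highest in naive mice at 38.3 ± 12.6 CPM (n = 9) and lowest in the 7 d group scratched without PBS at 22.5 ± 4.16 CPM. The class A scavenger receptor gene Msr1 (chr8:40034726-40095714) had the widest range of the receptors, from 21.0 ± 5.27 CPM in the 7 d nAg group to 63.3 ± 33.2 CPM in the 24 h group scratched without PBS, a ratio of 3.01. Its 5 highest group means were those of the 5 groups scratched 24 h earlier, as the plot of Msr1 by group shows.

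**Figure D1:**
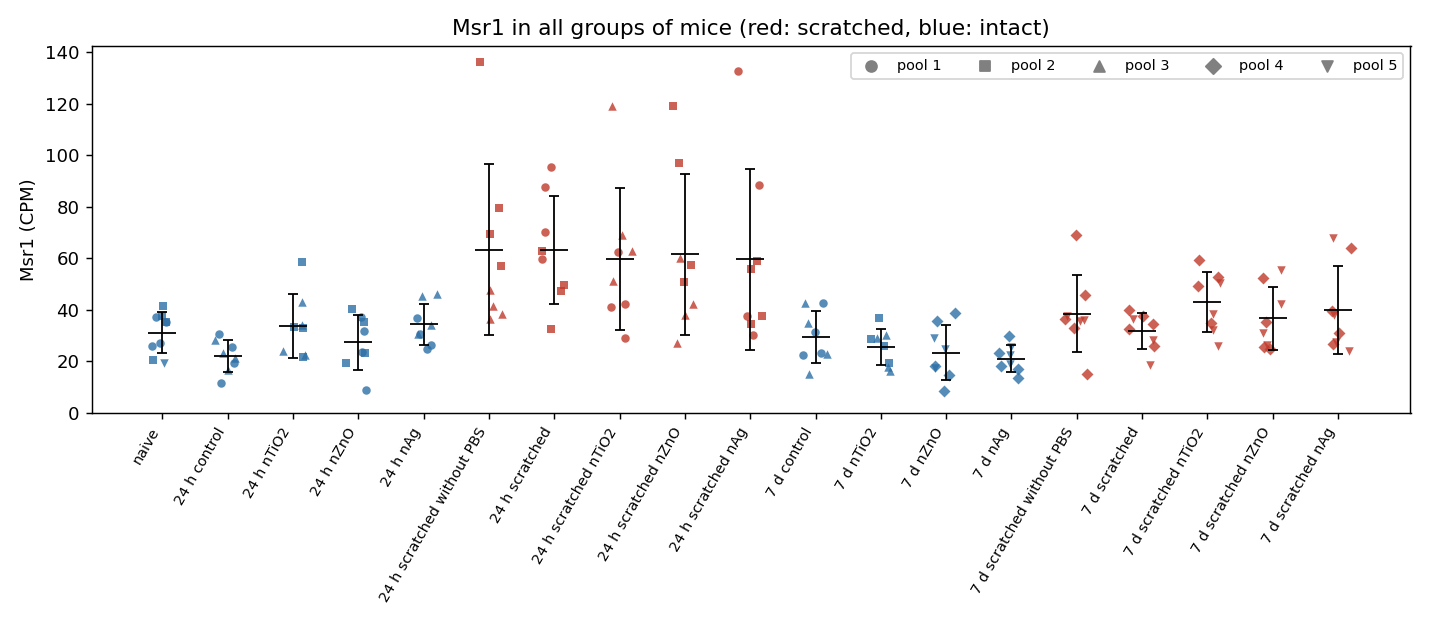
Msr1 level in CPM (vertical axis) for each mouse in the 19 groups (horizontal axis), with the marker shape giving the sequencing pool and bars the group mean ± SD. The 5 groups scratched 24 h earlier had means from 59.5 to 63.3 CPM, and the other 14 groups had means from 21.0 to 42.9 CPM.

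Arg1 (chr10:24791118-24803817), an enzyme that breaks down arginine, had a mean of 14.9 CPM over all mice. Its group means ranged from 7.29 ± 5.66 CPM in the 7 d control group to 23.7 ± 11.5 CPM in the 24 h scratched nZnO group. It had no count in 1 mouse, replicate 3 of the 7 d control group, where a count of 0 allows up to 14.9 CPM, so that mouse says little about Arg1. Retnla (chr16:48662895-48664824) encodes a secreted protein induced by IL-4. Its means ran from 397 ± 232 CPM in the 24 h scratched nAg group to 951 ± 460 CPM in naive mice. When the 19 means of each gene were put in order, all 18 gaps between neighbouring groups were smaller than the larger of the neighbours' SDs, for all 10 genes.

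The comparison of the scratched group with the control group at 24 h asks which of these genes respond to superficial injury with PBS given to both. Msr1 stood at 11.5 CPM in the lowest control mouse, 22.2 at the median and 30.6 in the highest. In the scratched group it stood at 32.3 CPM in the lowest mouse, 61.2 at the median and 95.5 in the highest. The groups did not overlap, and no other comparison of 2 groups gave any of the 10 genes without overlap. The share of all genes tested that were without overlap was not computed, so how unusual this is cannot be said. The estimated difference was 2.82-fold (95% interval 2.11 to 3.76; edgeR log2 fold change 1.495, SE 0.21, adjusted p = 0.000572).

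Mpeg1 was the other gene of the 10 that was called higher in the scratched group, where a call requires an adjusted p under 0.05 together with a log2 fold change of 0.33 or more in either direction. The control mice had 80.9 CPM at the lowest, 94.99 at the median and 204 at the highest, and the scratched mice 140, 187 and 254 CPM. All 8 scratched mice were above the control median, but the ranges overlapped. Its log2 fold change was 0.65 (SE 0.18, edgeR adjusted p = 0.0469). The call was lost in 12 of 16 fits that left out 1 mouse, with adjusted p from 0.0532 to 0.105: without control replicate 1, 3, 4, 5, 7 or 8, or scratched replicate 2, 3, 4, 5, 6 or 8.

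Across all genes, 3.39% of the 11872 tested were called in this comparison, and 2 of the 10 macrophage genes were. The 10 genes were chosen with earlier results of these data known. A higher share among them, here or in later comparisons, is therefore a description and not a test. The 403 calls over all genes became 244 without scratched replicate 4. The median log2 fold change was 0.41 over the 10 genes and -0.01 over all genes tested. Estimates were positive for 9 of the 10, and 7 had an unadjusted p under 0.05. Cd68 ran from 71.0 over 99.9 to 171 CPM in control mice (lowest, median, highest) and from 113 over 163 to 214 CPM in scratched mice, with a log2 fold change of 0.54 and an edgeR adjusted p of 0.0879. It was called by DESeq2 (adjusted p = 0.0483), with all groups in 1 edgeR fit (0.0462), with no filter (0.0400) and without control replicate 6 (0.0249). Adgre1 had a median of 52.9 CPM in control and 80.1 CPM in scratched mice, and 5 of the 8 scratched mice lay above the highest control (log2 fold change 0.58, edgeR adjusted p = 0.137). Arg1 had a median of 13.1 CPM in control and 21.5 CPM in scratched mice (log2 fold change 0.63, edgeR adjusted p = 0.161).

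Csf1r and Lyz2 showed little difference, with log2 fold changes of 0.02 (SE 0.16) and 0.11 (SE 0.15). Mrc1 and Cd163 had estimates of 0.22 (SE 0.12) and 0.28 (SE 0.13), neither of which was called. Retnla was the only gene with a negative estimate. It ranged from 408 over 780 to 1858 CPM in control mice and from 206 over 432 to 962 CPM in scratched mice, so that 4 of the 8 scratched mice were below the lowest control (log2 fold change -0.86, SE 0.32, edgeR adjusted p = 0.154). Without scratched replicate 8 it was called lower (log2 fold change -1.10, edgeR adjusted p = 0.0470).

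**Figure D2:**
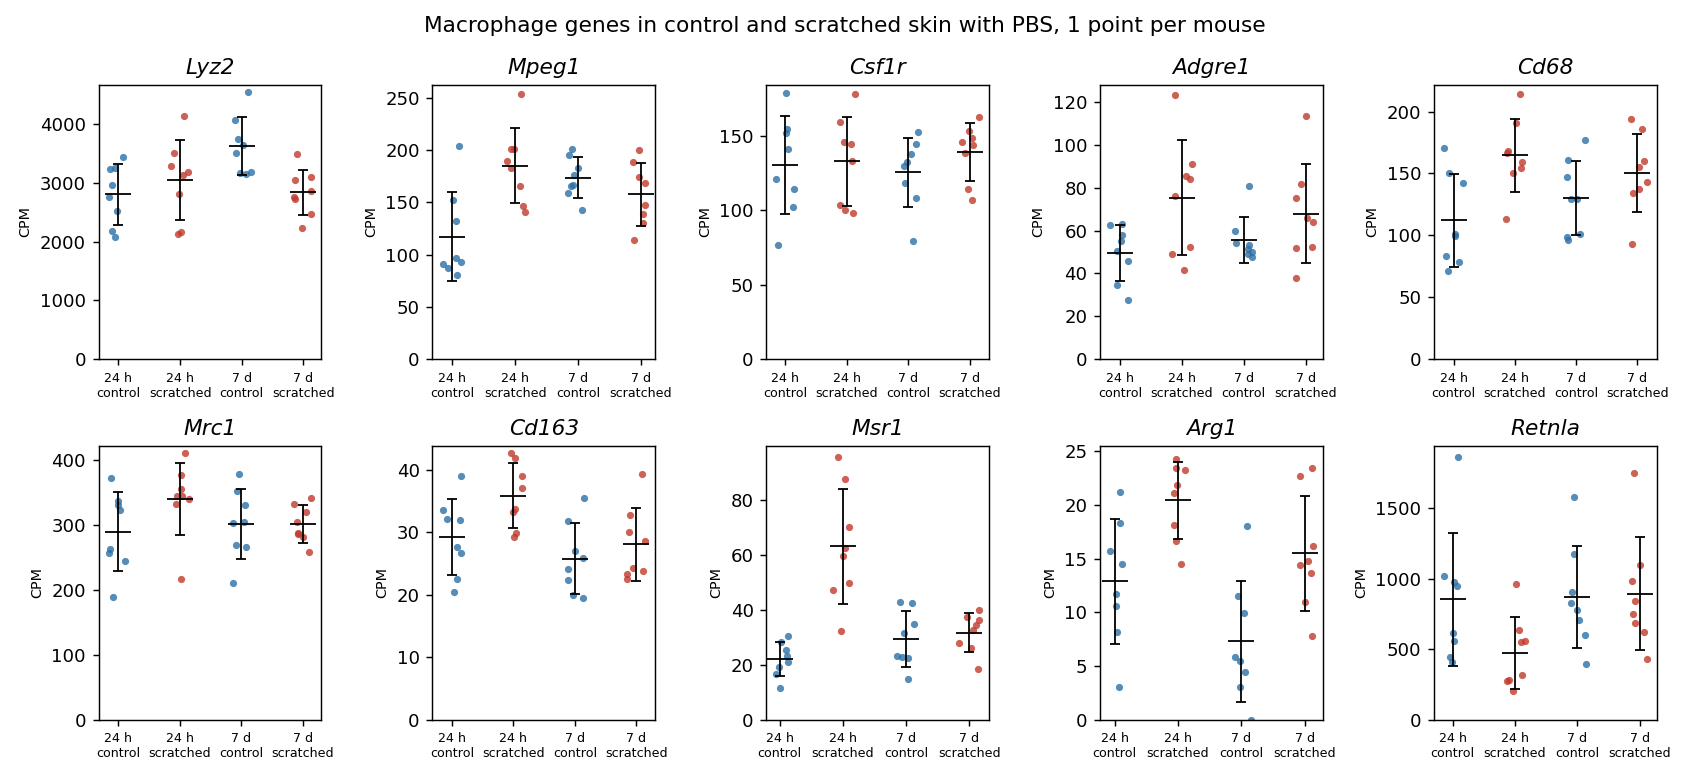
Level in CPM (vertical axes, 1 panel per gene) in single mice of the control and scratched groups at 24 h and 7 d (horizontal axis), with the mean ± SD of each group. At 24 h the Msr1 values of 32.3 to 95.5 CPM in scratched mice all lie above the control values of 11.5 to 30.6 CPM, while the groups overlap in the other 9 panels.

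The 2 groups shared only sequencing pool 1, which held 4 mice of each. Within it, Msr1 was at 25.3, 30.6, 19.4 and 11.5 CPM in control mice and at 70.2, 95.5, 59.7 and 87.6 CPM in scratched mice. Msr1 was called with the mice of pool 1 alone (log2 fold change 1.82, edgeR adjusted p = 0.00512) and with pool as a covariate (1.82, edgeR adjusted p = 0.000817). Mpeg1 was not called in either fit, at log2 fold changes of 0.67 (edgeR adjusted p = 0.263) and 0.66 (edgeR adjusted p = 0.176). RIN also differed, with a median of 8.35 in control and 9.15 in scratched mice, and its part in these results was not tested.

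Other genes of the same lineage were read from lists of markers. Of 23 further monocyte and macrophage genes, 7 rose and 0 fell at 24 h, with Ms4a6c, a membrane protein of these cells, at a log2 fold change of 1.04, Ly6c2, a surface protein of inflammatory monocytes, at 2.08, Fcgr1, the high-affinity IgG receptor, at 1.85 and Aif1, an actin-binding protein of macrophages, at 0.95. The list's median log2 fold change was 0.42. Of 12 inflammatory macrophage genes tested, 4 rose and 0 fell, among them the chemokine gene Ccl4 (18.4 to 74.3 CPM as group means) and the cytokine gene Il1b (55.3 to 95.1 CPM). The median of that list was 0.68. Fcgr1 belongs to both lists, so its rise is counted in each.

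Genes of resident dermal macrophages were divided, with 2 higher and 2 lower among 17 tested and a median log2 fold change of 0.06. Pf4, a platelet-type chemokine also made by tissue macrophages, rose from 498 to 856 CPM and the scavenger receptor Stab1 from 42.1 to 62.7 CPM. Gas6, a ligand of the receptors that macrophages use to engulf dying cells, was lower at 116 than at 200.2 CPM, and the chemokine Ccl24 was lower at 31.2 than at 65.5 CPM. Of 17 further repair macrophage genes, 0 rose and 2 fell: the lectin gene Mgl2, from 48.9 to 12.2 CPM, and the chemokine gene Ccl17, from 24.9 to 6.19 CPM. Mgl2 and Ccl17 are expressed by dendritic cells as well, and 3 of 9 dendritic and Langerhans cell genes tested were lower (Xcr1, Cd207 and Cd209a).

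Among the regulators of these cells, 1 of 10 genes around Csf1r was called, Csf3r, a receptor of the granulocyte growth factor, at a log2 fold change of 1.38. In the IL-4 and IL-13 list 1 of 7 was called, the alarmin Il33, from 93.9 to 179 CPM. Of 12 other scavenger receptors tested, Stab1 was higher and Cd209a lower, and 0 of 15 lysosome and phagosome genes were called in either direction by edgeR. Marker lists of neutrophils, which also hold Csf3r, and of monocytes moved in the same mice. Neutrophil markers rose in 5 of 10 tested, and their summed level was 516 to 2083 CPM (median 1371) in control and 1115 to 4264 CPM (median 2582) in scratched mice. Of inflammatory monocyte markers 4 of 10 rose (Ly6c2, Ms4a4c, Ccr2 and Plac8), of which Ly6c2 and Ccr2 are also among the 23 monocyte and macrophage genes above, with summed levels of 1021 to 1583 CPM and 1520 to 2308 CPM. Hair keratins summed to 80.1 to 4559 CPM (median 785) in control and 11.3 to 1888 CPM (median 87.2) in scratched mice, with 0 of 11 called. No defining marker of these lists was at 0 in all mice, although Ly6g and Elane of neutrophils were at 0 in 38 and 128 of the 153. The part of these cells in the levels of the 10 genes was not tested.

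Scratching without PBS was compared with naive skin, which asks for the response to injury with no liquid applied. At 24 h Msr1 ran from 19.3 over 35.2 to 41.4 CPM in naive mice and from 36.3 over 52.4 to 136 CPM in scratched mice. Of the 8 scratched mice 6 were above the highest naive mouse, and the log2 fold change was 0.98 (SE 0.24, edgeR adjusted p = 0.0232). Adgre1 was the other gene called, from 42.2 over 51.1 to 64.1 CPM in naive mice and from 54.7 over 78.4 to 87.3 CPM in scratched mice (log2 fold change 0.48, SE 0.12, edgeR adjusted p = 0.0235). Thus 2 of 10 genes were called, where 2.93% of all genes were. Those 341 calls over all genes became 219 without scratched replicate 2 and 225 without scratched replicate 4.

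Hair keratins summed to 5.64 to 638 CPM (median 16.4) in naive and 10.9 to 1153 CPM (median 174) in scratched mice, with 0 of 3 tested called by edgeR. Neutrophil markers rose in 4 of 9 tested, with summed levels of 746 to 1625 CPM in naive and 969 to 5054 CPM in scratched mice, and the part of both lists was not tested. The Adgre1 call was lost with pool as a covariate (log2 fold change 0.48, edgeR adjusted p = 0.134), in a fit of all groups (edgeR adjusted p = 0.146) and without replicate 4 of the scratched mice (edgeR adjusted p = 0.0504). For Msr1 it was lost without replicate 2 of the scratched mice (edgeR adjusted p = 0.0549) or without naive replicate 9 (edgeR adjusted p = 0.0504), and it held with pool as a covariate at a log2 fold change of 1.33.

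The size of the scratching effect at 24 h was compared between mice without PBS and mice with PBS by an interaction term. No gene of the 10 was called, 3 had an unadjusted p under 0.05 with edgeR and DESeq2 also called 0, and 0.0249% of all genes were called, or 26 genes with pool as a covariate in place of 3. The Msr1 effect was smaller by 0.51 (SE 0.34) on the log2 scale without PBS, with an edgeR adjusted p of 0.964. The genes under an unadjusted p of 0.05 were Mpeg1 (difference -0.51), Cd163 (-0.57) and Arg1 (-0.77).

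With nZnO, scratched and intact skin were compared at 24 h, and 3 of the 10 genes were called higher, against 5.33% of all genes called. Those 624 calls ranged from 276 without scratched replicate 4 to 955 without scratched replicate 6, and numbered 1232 with pool as a covariate. They also moved by over 1.5 times without intact replicate 1 (328) or 7 (346) and without scratched replicate 1 (383), 2 (313), 3 (289) or 8 (390). Msr1 ran from 8.63 over 27.7 to 40.3 CPM on intact and from 27.2 over 54.2 to 119 CPM on scratched skin (log2 fold change 1.15, SE 0.28, edgeR adjusted p = 0.0221). Cd68 ran from 62.9 over 134 to 166 CPM and from 145 over 178 to 214 CPM (log2 fold change 0.55, SE 0.14, edgeR adjusted p = 0.0293). For Arg1 the values were 6.16 over 10.4 to 16.4 CPM on intact and 7.74 over 26.3 to 40.0 CPM on scratched skin (log2 fold change 1.11, SE 0.31, edgeR adjusted p = 0.0388). In each of the 3 genes, 6 of the 8 scratched mice were above the highest mouse with intact skin.

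These calls rested on few mice to differing degrees. Msr1 lost its call in 1 of 16 fits that left out a mouse, the one without scratched replicate 4 (edgeR adjusted p = 0.0537). Cd68 lost it in 6, without intact replicate 1 or 7 or scratched replicate 1, 3, 4 or 8 (edgeR adjusted p from 0.0521 to 0.0583), and with pool as a covariate (0.197). Arg1 lost it in 11, without intact replicate 1, 4, 5, 6, 7 or 8 or scratched replicate 1, 2, 3, 4 or 8 (edgeR adjusted p from 0.0568 to 0.0837), and kept it with pool as a covariate at a larger log2 fold change of 1.81 (edgeR adjusted p = 0.00141). Neutrophil markers summed to 473 to 2487 CPM on intact and 834 to 6132 CPM on scratched skin, with 2 of 10 higher, and their part was not tested.

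With nTiO2 at 24 h edgeR called 0 of the 10 genes, 3 had an unadjusted p under 0.05, DESeq2 called 1 (Msr1), and 2.15% of all genes were called. Those 258 calls ranged from 120 without intact replicate 7 to 412 without scratched replicate 6, and also moved by over 1.5 times without intact replicate 1 (134) or scratched replicate 2 (155), 3 (125) or 4 (152), and with pool as a covariate (165). Msr1 ran from 21.8 over 33.2 to 58.4 CPM on intact and from 28.9 over 56.9 to 119 CPM on scratched skin, a log2 fold change of 0.87 (SE 0.24, edgeR adjusted p = 0.0557). It was called with pool as a covariate (log2 fold change 1.35, edgeR adjusted p = 0.0214), with all groups in 1 fit (0.0365), with no filter (0.0285), and without intact replicate 2 (0.0240) or scratched replicate 5 (0.0486) or 6 (0.0149). With nAg edgeR again called 0 of 10, 4 had an unadjusted p under 0.05, DESeq2 called 1 (Lyz2, lower on scratched skin), and 1.51% of all genes were called. With pool as a covariate Retnla was called lower (log2 fold change -2.25, edgeR adjusted p = 0.00251), against -0.84 and an edgeR adjusted p of 0.249 without it. The 175 calls over all genes became 85 with pool as a covariate and ranged from 37 without intact replicate 7 to 271 without scratched replicate 8. They also moved by over 1.5 times without intact replicate 1 (80), 3 (64), 4 (89), 5 (89) or 6 (72) and without scratched replicate 1 (74) or 3 (53). Msr1 medians were 32.3 CPM on intact and 46.7 CPM on scratched skin, at a log2 fold change of 0.78 (SE 0.26, edgeR adjusted p = 0.145). Lyz2 medians were 3685 and 2889 CPM, and no scratched mouse was above the intact median (log2 fold change -0.34, edgeR adjusted p = 0.0931). Lyz2 CPM was lower in larger libraries over all mice, as given further on, and the median library totals here were 990410 counts for intact and 1345176 for scratched skin. The part of depth was not tested.

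Whether the effect of scratching at 24 h differed with a nanomaterial from that with PBS was tested by interaction terms, all of which use the same control and scratched groups. With edgeR 0 of the 10 genes were called for nTiO2, nZnO and nAg, DESeq2 called 0 in each, and 0% of all genes were called in each, or 12 genes for nZnO with pool as a covariate. Unadjusted p under 0.05 was reached by 0, 0 and 1 genes, the last being Lyz2 with nAg. For Msr1 the differences were -0.63 (SE 0.35), -0.35 (SE 0.37) and -0.72 (SE 0.36) on the log2 scale. The Msr1 means on scratched skin lay close together, at 63.1 ± 21.0 CPM with PBS, 59.6 ± 27.6 with nTiO2, 61.5 ± 31.2 with nZnO and 59.5 ± 35.3 with nAg.

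**Figure D3:**
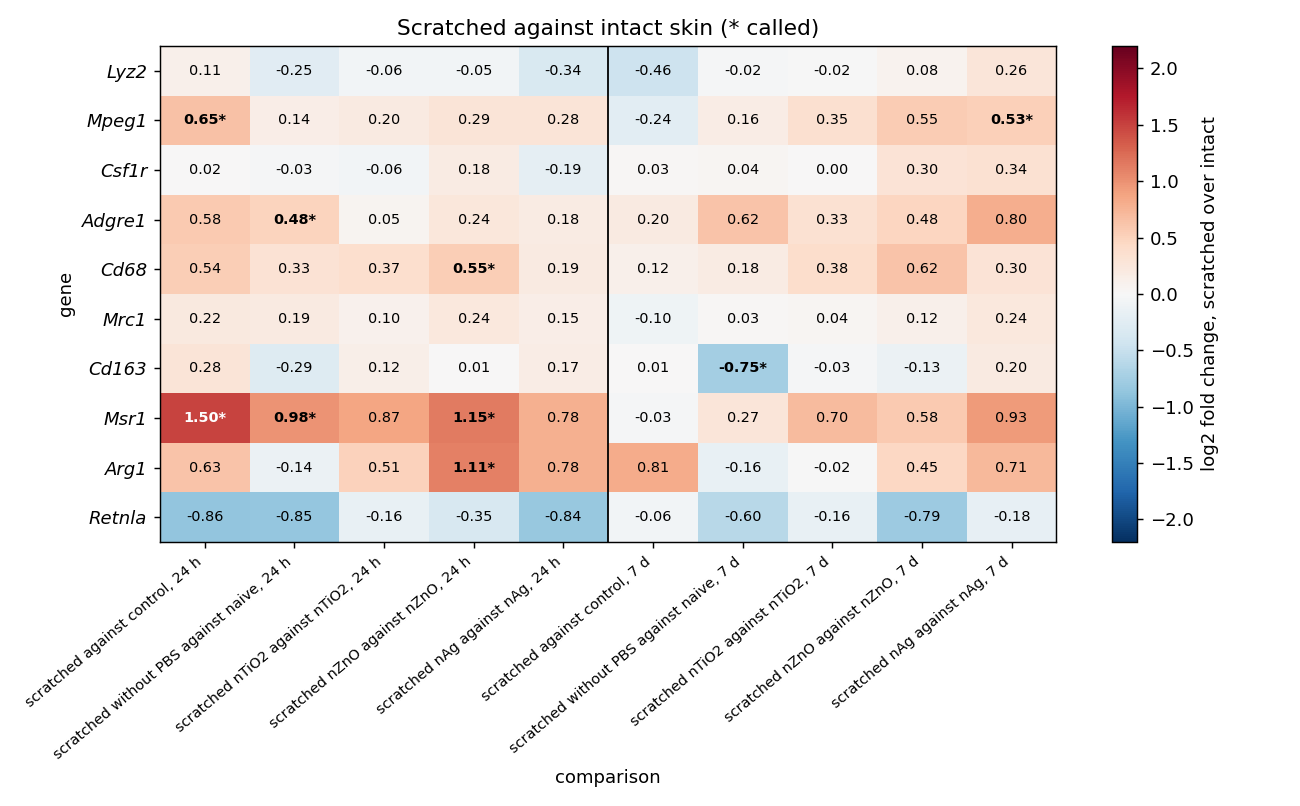
Log2 fold change of scratched against intact skin (colour and printed value) for the 10 genes (rows) in 10 comparisons, 5 at each timepoint (columns), with * for a called gene. Msr1 is positive in all 5 comparisons at 24 h, from 0.78 to 1.495, and Retnla is negative in all 10.

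At 7 d edgeR called 0 of the 10 genes between the scratched and control groups, 3 had an unadjusted p under 0.05, DESeq2 called 1 (Lyz2), and 0% of all genes were called. Msr1 ran from 14.9 over 27.3 to 42.7 CPM in control and from 18.5 over 33.5 to 39.9 CPM in scratched mice, a log2 fold change of -0.03 (SE 0.17). Lyz2 ran from 3150 over 3579 to 4548 CPM in control and from 2229 over 2816 to 3495 CPM in scratched mice. Of the scratched mice 7 of 8 were below the lowest control (log2 fold change -0.46, SE 0.12, edgeR adjusted p = 0.229). Median library totals were 988164 counts in control and 1286938 in scratched mice, and the part of depth was not tested. Arg1 medians were 5.67 CPM in control and 14.6 CPM in scratched mice, with an edgeR adjusted p of 0.346. These 2 groups shared no sequencing pool, so pool and scratching cannot be told apart, and leaving out the small control library gave 0 calls as well.

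In mice scratched 7 d earlier without PBS, Cd163 was lower than in naive mice and was the 1 gene of the 10 called, against 1.23% of all genes. It ran from 18.8 over 40.4 to 64.2 CPM in naive and from 16.3 over 22.6 to 27.97 CPM in scratched mice, and all 8 scratched mice lay below the naive median (log2 fold change -0.75, SE 0.19, edgeR adjusted p = 0.0496). With pool as a covariate the estimate was -0.80 and the call was not kept. The groups overlapped only in pool 5, where naive replicate 9 was the only naive mouse. That fit therefore rests on a single naive library and cannot tell pool and scratching apart. On intact skin at 7 d, Cd163 means were also below the naive mean of 38.3 CPM. They were 25.8 CPM with PBS, 29.0 with nTiO2, 29.75 with nZnO and 23.5 with nAg. Adgre1 medians were 51.1 CPM in naive and 83.0 CPM in scratched mice, and it was not called (log2 fold change 0.62, edgeR adjusted p = 0.0782).

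With nAg, Mpeg1 was higher on scratched than on intact skin at 7 d and was the only one of the 10 genes called, against 0.611% of all genes, 73 calls that became 40 with pool as a covariate. Intact mice ran from 102 over 127 to 160 CPM and scratched mice from 125 over 179 to 235 CPM, with 6 of 8 scratched mice above the highest intact mouse (log2 fold change 0.53, SE 0.11, edgeR adjusted p = 0.0400). The call was lost with pool as a covariate (edgeR adjusted p = 0.0597) and in a fit of all groups (edgeR adjusted p = 0.121). Msr1 had medians of 20.5 and 34.6 CPM there and was not called by edgeR (log2 fold change 0.93, edgeR adjusted p = 0.0579), but was with no filter (0.0116) and by DESeq2 (0.0134). Hair keratins were at 209 to 2295 CPM on intact and 8.11 to 1000 CPM on scratched skin in these groups, with 2 of 11 lower, and their part was not tested.

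With nTiO2 at 7 d edgeR called 0 of 10 genes, 4 had an unadjusted p under 0.05, DESeq2 called 1 (Msr1), and 0.135% of all genes were called. Msr1 medians were 27.3 CPM on intact and 43.9 CPM on scratched skin (log2 fold change 0.70, SE 0.18, edgeR adjusted p = 0.112). With nZnO at 7 d edgeR and DESeq2 each called 0 of 10, 6 had an unadjusted p under 0.05 by edgeR, and 0.944% of all genes were called. Cd68 medians were 129 CPM on intact and 158 CPM on scratched skin (log2 fold change 0.62, edgeR adjusted p = 0.117), and Retnla medians were 893 and 516 CPM (log2 fold change -0.79, edgeR adjusted p = 0.131).

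Over the 10 comparisons of scratched with intact skin, of which 2 share the naive mice, the genes differed in how steady their estimates were. Retnla had a negative estimate in 10 of 10, between -0.86 and -0.06, with 5 at an unadjusted p under 0.05 and 0 called by edgeR. Cd68 and Adgre1 had positive estimates in 10 of 10, between 0.12 and 0.62 and between 0.05 and 0.80, and each was called once. Msr1 had positive estimates in 5 of 5 at 24 h, with 3 called. At 7 d Msr1 had them in 4 of 5, with 3 at an unadjusted p under 0.05 and 0 called by edgeR. In the main edgeR test Csf1r, Mrc1, Lyz2 and Retnla were called in none of the 31 comparisons, while Lyz2 and Retnla were called under some other settings.

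Time was compared directly within the scratched groups. Msr1 was lower at 7 d than at 24 h and was the 1 gene of 10 called, against 4.42% of all genes. It ran from 32.3 over 61.2 to 95.5 CPM at 24 h and from 18.5 over 33.5 to 39.9 CPM at 7 d, and no mouse at 7 d was above the median at 24 h (log2 fold change -1.02, SE 0.19, edgeR adjusted p = 0.00403). Retnla medians were 432 CPM at 24 h and 795 CPM at 7 d (log2 fold change 0.89, SE 0.29, edgeR adjusted p = 0.0754). The groups shared no pool, so time and pool cannot be told apart. Inflammatory macrophage genes fell in 4 of 12 tested and rose in 0.

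In the control groups edgeR and DESeq2 called 0 of the 10 genes between 7 d and 24 h, 3 had an unadjusted p under 0.05, and 0% of all genes were called. Mpeg1 medians in control mice were 94.99 CPM at 24 h and 171 CPM at 7 d (log2 fold change 0.62, edgeR adjusted p = 0.311). The interaction of scratching with time, tested in the groups with PBS, called Msr1 alone among the 10, against 0.394% of all genes. Its effect of scratching was larger at 24 h than at 7 d by 1.52 on the log2 scale (SE 0.29, edgeR adjusted p = 0.00903), and by 1.55 without the small control library. For Mpeg1 the difference was 0.89 (SE 0.22, edgeR adjusted p = 0.0516). The control and scratched groups at 7 d shared no pool, so pool and scratching cannot be told apart in that part of the interaction. The part of pool in these differences was not tested.

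PBS itself was assessed by comparing control with naive mice. At 24 h all 10 genes had negative estimates, 4 had an unadjusted p under 0.05, edgeR and DESeq2 called 0, and 0.692% of all genes were called. Mpeg1 medians were 166 CPM in naive and 94.99 CPM in control mice, and 5 of 8 control mice were below the lowest naive mouse (log2 fold change -0.51, SE 0.17, edgeR adjusted p = 0.344). Msr1 medians were 35.2 and 22.2 CPM (log2 fold change -0.51, SE 0.18, edgeR adjusted p = 0.406). The same control mice are the base of the scratching comparison with PBS at 24 h. They also had higher hair keratins than naive mice in 11 of 11 tested, a count that pool as a covariate reduces to at most 1, since only 5 genes were then called over all genes and 1 of them was higher. The part of hair follicles in the levels of the 10 genes was not tested. At 7 d edgeR and DESeq2 called 0 of 10, 2 had an unadjusted p under 0.05, and 0.24% of all genes were called. With pool as a covariate 138 genes were called over all genes in place of 27, with 0 of the 10 among them.

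Nanomaterials on intact skin were compared with PBS at each timepoint, with the 3 materials sharing the same control mice. At 24 h edgeR and DESeq2 called 0 of 10 genes with nTiO2, nZnO and nAg, unadjusted p under 0.05 was reached by 2, 0 and 3 genes, and 0% of all genes were called in each. The 3 genes with nAg were Lyz2, Cd68 and Msr1, the last with medians of 22.2 CPM in control and 32.3 CPM in nAg mice (log2 fold change 0.63, SE 0.18, edgeR adjusted p = 0.468). At 7 d edgeR and DESeq2 called 0 of 10 with nTiO2 and with nZnO, 2 genes had an unadjusted p under 0.05 in each, and 0% and 0.0442% of all genes were called. The 5 calls with nZnO became 16 without the nZnO mouse with conflicting entries.

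Mpeg1 was lower with nAg than with PBS on intact skin at 7 d, the 1 call among 60 tests of the 10 genes on intact skin. Control mice ran from 142 over 171 to 202 CPM and nAg mice from 102 over 127 to 160 CPM, and 7 of 8 nAg mice were below the lowest control (log2 fold change -0.50, SE 0.09, edgeR adjusted p = 0.0455). Of all genes, 0.0859% were called, that is 10 genes, or 17 without the small control library. The call held without the small control library (edgeR adjusted p = 0.0482) and was lost in a fit of all groups (edgeR adjusted p = 0.223). The groups shared no pool, so pool and nAg cannot be told apart. Lower Mpeg1 means than the 173.8 CPM with PBS were also found at 7 d with the other materials, without a call. They were 120.8 CPM with nZnO and 135.2 CPM with nTiO2, against 128.2 CPM with nAg. The same intact nAg mice are the base of the Mpeg1 call for scratched against intact skin with nAg at 7 d. Hair keratins were at 17.3 to 705 CPM in control and 209 to 2295 CPM in nAg mice, with 0 of 11 called, and their part was not tested.

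On scratched skin the nanomaterial groups were compared with the scratched group with PBS, which the 3 materials share at each timepoint. None of 60 tests of the 10 genes was called by the main edgeR test or DESeq2, and 4 had an unadjusted p under 0.05, all at 7 d. At 24 h 0% of all genes were called with each material. With pool as a covariate Adgre1 was called lower with nZnO at 24 h (log2 fold change -0.72, edgeR adjusted p = 0.0350), where 509 in place of 0 genes were called over all genes. At 7 d 0% were called with nTiO2, 0% with nZnO and 0.00835% with nAg. Retnla had the lowest adjusted p of the 60, with medians of 795 CPM in the scratched group and 516 CPM in the scratched nZnO group at 7 d (log2 fold change -0.85, SE 0.28, edgeR adjusted p = 0.671).

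The genes were also followed across single mice, with each group's mean taken off log2 CPM values. This removes differences between group means, but mice of a group can still differ in their response to treatment. Over 153 mice the 45 pairs had a median Spearman's rho of 0.23, with 6 pairs above 0.5 and 12 below 0. The 6 pairs were those among Mpeg1, Csf1r, Adgre1 and Cd68, from 0.57 for Mpeg1 with Csf1r to 0.73 for Mpeg1 with Cd68. Msr1 stood next to this set at 0.49 with Mpeg1 and 0.48 with Cd68. Cd163 and Retnla were not part of it: Cd163 had rho from -0.18 to 0.26 with the other genes, and Retnla from -0.30 with Msr1 to 0.26 with Cd163. Mice of a pool share their sequencing run, and all genes of a mouse share its biopsy and library total, so these values are a description.

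**Figure D4:**
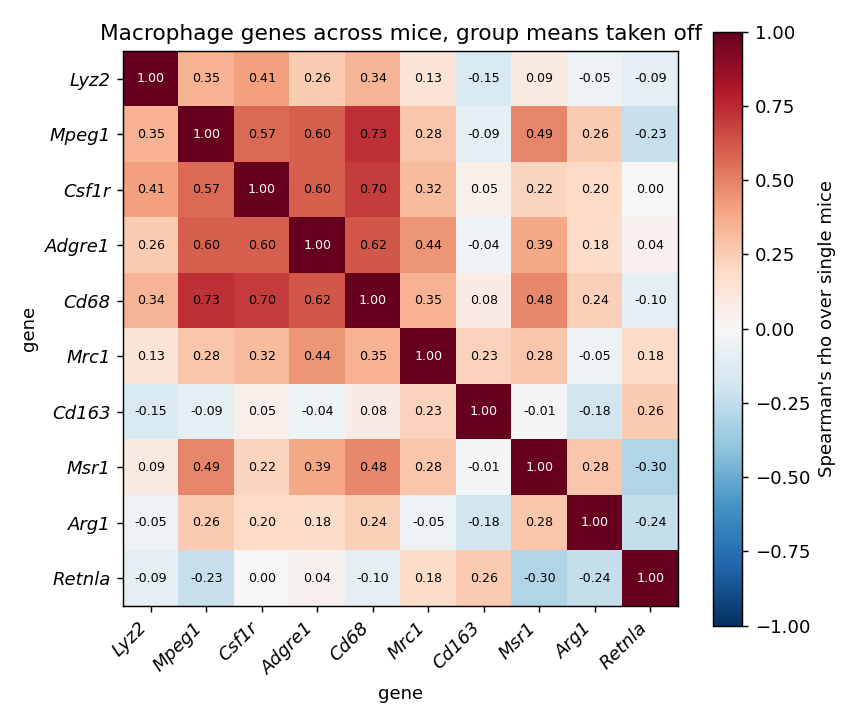
Spearman's rho between the 10 genes (rows and columns) over 153 mice after taking off group means, as colour and printed value. The square formed by Mpeg1, Csf1r, Adgre1 and Cd68 holds rho from 0.57 to 0.73, and Retnla has rho from -0.30 to 0.26 with the other genes.

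Among the 11996 genes whose mean was 5 CPM or more, the closest to each of the 10 across the same mice were found in the same way. Cd68 was closest to Tyrobp (rho 0.80), an adaptor of activating receptors, and Syk (0.78), the kinase that such adaptors recruit. Mpeg1 was closest to Clec7a (0.79), the receptor for fungal beta-glucan, and Csf1r to Itgb2 (0.78), an integrin chain of leukocytes. Adgre1 was closest to the lectin gene Clec4a3 (0.72) and the complement gene C1qb (0.71). Msr1 was closest to Ms4a6d (0.77) and Ccr1 (0.71), a chemokine receptor.

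The other genes had different neighbours. Mrc1 was closest to Cd302 (0.63) and Cd163 to F13a1 (0.49), a transglutaminase chain, and F13a1 was also second for Mrc1 (0.61). Arg1 was closest to Lrrfip1 (0.56) and the gap junction gene Gjb2 (0.54). Retnla was closest to Sema3c (0.66), Clec3b (0.63) and Scara5 (0.61). Lyz2 was closest to Prdx1 (0.78) and Fth1 (0.77), the ferritin heavy chain, and was also the gene with the strongest relation to the library total (rho -0.51, against -0.08 to 0.30 for the other 9).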

How the data were processed

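Skin RNA of 153 mice was sequenced in 5 pools. The authors inspected reads with FastQC and MultiQC, removed short reads with Trimmomatic, processed them with Picard and the Drop-seq tools, and aligned them with STAR to GRCm39 with Gencode M28. The deposited values are raw counts of unique molecular identifiers per gene from uniquely aligned reads. RIN is a score of RNA integrity that the authors deposited for each mouse. Groups were taken from the deposited sample information, since a deposited library pools many mice.

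The main test was edgeR's quasi-likelihood test (edgeR 4.0.16, limma 3.58.1, R 4.3.3) with TMM normalisation on the mice of the groups compared. A gene was tested if over 5 counts were found in 75% or more of the mice in one of the groups (6 of 8, 7 of 9). P-values were adjusted over all genes tested by the Benjamini-Hochberg method. A call needed an adjusted p under 0.05 together with a log2 fold change of 0.33 or more in either direction. The p-values measure the spread between mice of 1 experiment. Alternatives were DESeq2 1.42.0, RLE factors, no filter, no fold threshold, pool as a covariate, all groups in 1 fit, a replicate block and leaving out mice. CPM values use library totals. The script was tested on simulated data. The 10 genes and the marker lists were chosen with earlier results of these data known. All 10 genes are named, and up to 4 genes of each list, those with the smallest p in scratched against control skin at 24 h.

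The last 500 bases of the coding transcripts of the 10 genes shared no 50-base run with another gene, other than Csf1r (3.73% of its runs) and Cd163 (1.69%). Promoter sequences are from RefSeq, GRCm38.p6.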

Additional observations from a re-analysis of the deposited data

Results flagged for a closer look

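In 17 of 190 sets of 1 gene in 1 group (8.95%), the highest or lowest mouse lay further from the nearest other mouse than Dixon's 95% limit allows. Chance alone marks about 1 in 20 sets. Low mice were replicate 1 of the 24 h scratched nTiO2 group for Lyz2 (1131 CPM) and Csf1r (43.8 CPM), and replicate 6 of the 7 d nTiO2 group for Lyz2 (1985 CPM). Further low mice were replicate 3 of the 24 h group scratched without PBS for Cd68 (91.5 CPM), and replicate 2 of the 24 h nAg group and of the 24 h scratched group for Mrc1 (203 and 217 CPM).

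Replicate 8 of the 7 d scratched nZnO group was high for Mpeg1 (341 CPM) and Csf1r (220 CPM), and replicate 2 of the 24 h nTiO2 group for Csf1r (236 CPM). Adgre1 was high in replicate 4 of the 7 d control group (80.9 CPM) and Cd163 in naive replicate 7 (64.2 CPM). Msr1 was high in replicate 1 of the 24 h group scratched without PBS (136 CPM) and in replicate 3 of the 24 h scratched nTiO2 group (119 CPM). Arg1 was high in replicate 5 of the 24 h group scratched without PBS (28.6 CPM) and replicate 2 of the 7 d nZnO group (18.1 CPM). Retnla was high in replicate 4 of the 24 h control group (1858 CPM) and replicate 7 of the 7 d nAg group (1608 CPM).

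The estimated effect of scratching on Msr1 with PBS differed between the timepoints, by 1.52 on the log2 scale in the interaction test. At the later timepoint the control and scratched groups shared no pool, so pool and scratching cannot be told apart there. The part of pool in this difference was not tested.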

How the results depend on the processing

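Counts of called genes were recomputed 164 times under other settings, of which 125 stayed within 1.5 times the main count and 39 moved. The 12 calls of single genes were recomputed 188 times: 146 kept the call, 42 lost it and 0 changed sign. The setting with no fold threshold uses the main fit itself, so it keeps every call by construction, that of Msr1 below included. For scratched against control skin at 24 h the main 2 calls became 1 with pool as a covariate, 1 with the mice of pool 1 alone, and 1 to 3 when a mouse was left out. At 7 d the main 0 became 1 with DESeq2 (Lyz2). For scratching without PBS at 24 h the main 2 became 1 with pool as a covariate, 1 with all groups in 1 fit, and 1 to 3 when a mouse was left out. At 7 d the main 1 became 2 with no filter and was not kept with pool as a covariate, a fit that rests on a single naive mouse. For scratched against intact skin with the same nanomaterial, summed over the 3 materials, the main 3 at 24 h became 5 with DESeq2 and 0 to 4 when a mouse was left out. At 7 d the main 1 became 3 with no filter, 3 with DESeq2, 2 with all groups in 1 fit and 0 with pool as a covariate, which could be fitted in 2 of 3 comparisons. For nanomaterials against PBS on intact skin the main 1 became 2 with no filter, 2 with DESeq2 and 0 with all groups in 1 fit. On scratched skin the main 0 became 1 with pool as a covariate (Adgre1, nZnO at 24 h). For scratched skin at 7 d against 24 h the main 1 became 2 with no filter (Retnla). For scratching by time the main 1 became 2 with no filter and 2 with DESeq2 (Mpeg1). The cause of these changes was not tested. Msr1 in scratched against control skin at 24 h was called in 8 of 8 other settings and in 16 of 16 fits that left out a mouse, at log2 fold changes from 1.37 to 1.82.

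The replicate numbers were checked for pairing of control and scratched mice. At 24 h 3 of 8 same-numbered pairs had a correlation of deviations over 0.1 (median 0.02, highest 0.381), and at 7 d 0 of 8. The highest correlation was with the mouse of the same number for 3 of 8 scratched mice at 24 h and 0 at 7 d. This check cannot settle whether mice were paired, and the main test treated them as unpaired. With a replicate block 3 of the 10 genes were called at 24 h and 0 at 7 d. Leaving out the smallest library, or the mouse with conflicting entries, was chosen after seeing the data and changed no count of calls among the 10 genes. Levels of the 10 genes with TMM library sizes were all within 1 SD of the CPM means in the 30 checked. Depth limits Arg1, Msr1 and Cd163 most, whose lowest counts in a mouse were 0, 3 and 4. At 7 d the control group shared no pool with the scratched, nZnO and nAg groups.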

Other observations

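Close relatives of the 10 genes were read as a check on shared counts. Lyz1, the lysozyme gene of Paneth cells that neighbours Lyz2, had a mean of 421 CPM over all mice, and Retnlb, a relative of Retnla expressed in the gut, had 0.00753 CPM. Arg2, the mitochondrial arginase, had a mean of 22.7 CPM. Mrc2, a collagen receptor of fibroblasts, had 13.5 CPM.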
